A study of Mus musculus with 36 samples.

Results

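Hif1a encodes the oxygen-labile alpha subunit of hypoxia-inducible factor 1 (HIF-1), and the regions described here are all listed peaks that the authors annotated to this gene symbol. They number 6 of the 13958 regions in the deposited tables of 3 histone marks: 4 of 8115 for H3K9ac, 2 of 469 for H3K4me3 and 0 of 5374 for H3K9me3. The gene was chosen by measured values: its listed H3K9ac peaks were all higher in the knockout. The direction and size of those 4 differences are therefore a description and not a test.

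The cells were primary aortic smooth muscle cells, either from wild-type C57BL/6N mice or from mice with a whole-body knockout of CSE (cystathionine gamma-lyase, a hydrogen sulfide-producing enzyme). All groups, wild type included, had received 1 µM angiotensin II, a vasoconstrictor peptide, for 24 hours, so no group shows the cells without it. ChIP-seq (sequencing of chromatin fragments pulled down with an antibody) gave 36 libraries in 12 groups of 3: each mark, as immunoprecipitate or input, in knockout and wild type. The labels do not say whether the 3 libraries of a group came from separate animals or cultures. The authors' p-values may therefore measure technical spread only. The tables give 1 mean per genotype and no value per library, so library depth is unknown and the spread between replicates cannot be shown.

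With oxygen present, the prolyl hydroxylases of the Egln family mark HIF-1 alpha for ubiquitination by the von Hippel-Lindau ligase, and the protein is degraded. Without it, HIF-1 alpha pairs with ARNT, binds a short core motif in DNA and recruits the acetyltransferases p300 and CBP to glycolytic and angiogenic genes. Angiotensin II is also known to raise HIF-1 alpha in vascular smooth muscle cells. H3K9ac marks active promoters and enhancers, H3K4me3 marks active promoters, and H3K9me3 marks heterochromatin.

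The sequence before a Hif1a start site is shown because no listed peak of any mark covers it. It holds the 250 bases before the start given in the RefSeq promoter table, on the plus strand (GRCm38.p6, chr12:73907617-73907866), with matches to the HIF core motif in capitals. The RefSeq gene span begins earlier, at 73901324, and this outer start is not covered by a listed peak either.
Hif1a promoter: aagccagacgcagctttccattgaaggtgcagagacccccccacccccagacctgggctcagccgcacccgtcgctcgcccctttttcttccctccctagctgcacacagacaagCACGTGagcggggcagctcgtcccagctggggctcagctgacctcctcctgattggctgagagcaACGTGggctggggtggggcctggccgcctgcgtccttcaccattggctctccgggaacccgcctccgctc
The motif was searched as ACGTG and GCGTG on both strands. This stretch held 3 matches, all to ACGTG. One on each strand shared the palindrome CACGTG between 135 and 130 bases before the start, and the other lay 70 to 66 bases before it. Of 32851 RefSeq promoters, 38.6% held at least 1 match in the same 250 bases, 16.6% held ACGTG and 6.58% held 3 or more matches. These are letter matches and not measured binding sites.

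All listed peaks of Hif1a lay inside the gene and downstream of its start. The authors' H3K4me3 table uses the transcript ENSMUST00000021530, which runs from 73907904 to 73947530 on chromosome 12 and starts 6580 bp after the RefSeq span does. Measured from that start, both H3K4me3 peaks and the first 2 H3K9ac peaks lay in what the authors call intron 1 of 14. The H3K4me3 peaks came first, at 6374 and 8654 bp (chr12:73914278-73915041 and chr12:73916558-73916920). The H3K9ac peaks followed at 11050 bp (peak 1, chr12:73918954-73919148), 14448 bp (peak 2, chr12:73922352-73922860), 20850 bp (peak 3, chr12:73928754-73929006) and 30204 bp (peak 4, chr12:73938108-73938624). The marks did not overlap: 0 of the 4 H3K9ac peaks shared a base with a listed H3K4me3 or H3K9me3 peak, and 2033 bp separated the last H3K4me3 peak from the first H3K9ac peak. Gaps between neighbouring H3K9ac peaks were 3203, 5893 and 9101 bp.

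**Figure D1:**
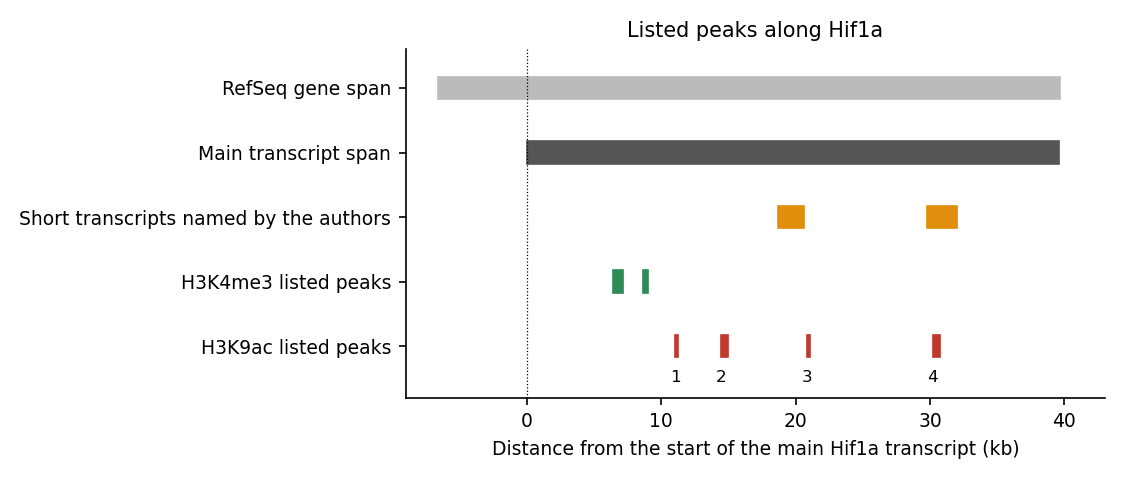
Positions along Hif1a in kilobases from the start of the transcript ENSMUST00000021530 (dotted line), with the RefSeq gene span, that transcript, the 2 short transcripts the authors used for H3K9ac, and the listed peaks. The 2 H3K4me3 peaks lie nearest the start and the 4 H3K9ac peaks (numbered) lie beyond them, from 11050 to 30204 bp.

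The authors annotated peaks 3 and 4 as promoter peaks, but neither lies at the start of the gene. Peak 3 was placed 2152 bp after the start of ENSMUST00000149740, a transcript spanning 1931 bp that begins 18698 bp inside the gene. Peak 4 was placed 438 bp after the start of ENSMUST00000157041, which spans 2212 bp and begins 29766 bp inside it. Peak 4 also lies within Gm15283, a long non-coding RNA gene that overlaps the far end of Hif1a in RefSeq (73934724 to 73952439). ChIP fragments carry no strand, so its signal cannot be divided between the overlapping genes.

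In all 4 H3K9ac peaks the knockout mean was above the wild-type mean. Peak 2 was the strongest, with 47.5 mean normalised reads in the knockout and 18.0 in the wild type, from the authors' deposited table. Peak 4 followed with 28.4 and 9.58, from the authors' deposited table. Both weaker peaks were near the bottom of the scale. In the authors' deposited table peak 1 had 12.9 mean normalised reads in the knockout and 2.55 in the wild type, and peak 3 had 14.1 and 2.87. Both genotypes gave the 4 peaks the same order of signal, from peak 2 through 4 and 3 to 1. Whether single libraries of the genotypes overlapped cannot be seen from these means.

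**Figure D2:**
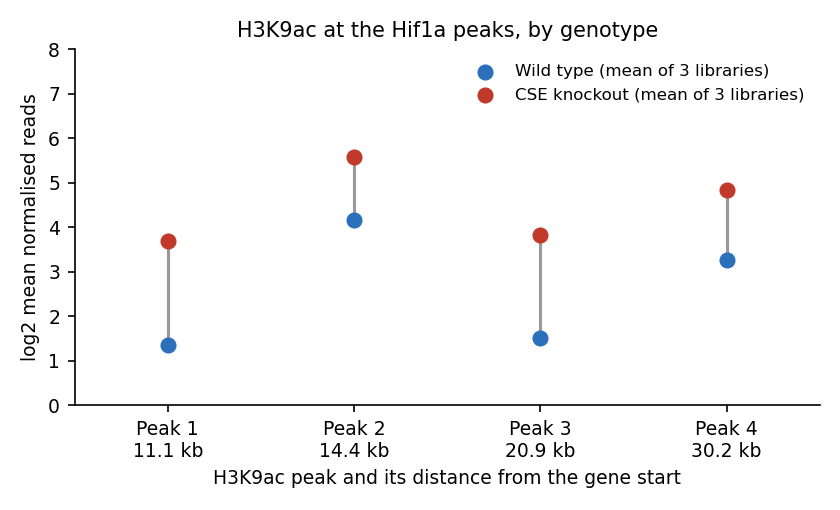
Log2 mean normalised reads at the 4 Hif1a H3K9ac peaks in wild type (blue) and CSE knockout (red), each the authors' mean of 3 libraries, with no error because single libraries are not given. The knockout point lies above the wild-type point at every peak, and the widest gaps are at peaks 1 and 3, where the wild-type log2 values are 1.35 and 1.52.

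On the log2 scale the knockout minus wild-type difference was 2.34 at peak 1, with p 0.0478 and FDR 0.317 in the authors' deposited table. It was 1.4 at peak 2 (p 0.008, FDR 0.119) and 2.30 at peak 3 (p 0.0482, FDR 0.318), per the authors' deposited table. Peak 4 differed by 1.58, with p 0.0141 and FDR 0.165 there, again from the authors' deposited table. These are folds of 5.06, 2.64, 4.92 and 2.99 from the authors' deposited table. None of the 4 peaks passed the authors' FDR at 0.05, so each is listed by its unadjusted p only. By that limit 16.6% of all listed H3K9ac peaks passed, and 17.6% of those that were higher, per the authors' deposited table. The count of 4 higher of 4 stands beside 22.8% higher among the 8115 listed peaks. Since that pattern chose the gene, nothing is read from it. No H3K9ac peak with the authors' p below 0.0001 was listed, so Hif1a peaks of smaller p could be missing.

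The largest folds of Hif1a stood at its weakest peaks. Peaks 1 and 3 were listed close to the p limit of 0.05: 97.8% and 98.2% of listed peaks had a smaller p in the authors' deposited table. In mean signal, only 0.493% of listed H3K9ac peaks lay below peak 1 and 0.949% below peak 3. Listed peaks of such low signal all had large folds. Only peaks with the authors' p under 0.05 are listed, so smaller folds at such signal may be missing. Among the 99 other listed peaks within 0.25 log2 units of the mean signal of peak 1, the smallest absolute log2 fold change was 1.96 in the authors' deposited table. For peak 3 it was 1.77 among 148 peaks, for peak 4 1.05 among 1124 and for peak 2 0.82 among 1174, again in the authors' deposited table.

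Beside higher peaks of like signal, 3 of the 4 Hif1a differences were below the median. The median log2 fold change of such higher peaks was 3.06 around peak 1 and 2.86 around peak 3 in the authors' deposited table, both above the Hif1a values. Around peak 4 it was 1.63 and around peak 2 it was 1.27, the latter below the Hif1a value of 1.4, in the authors' deposited table. Between 25.2% and 30.4% of these neighbours in signal were higher in the knockout. The Hif1a peaks were also narrow, at 195 to 517 bp, where the median width of higher H3K9ac peaks was 595 bp in the authors' deposited table.

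**Figure D3:**
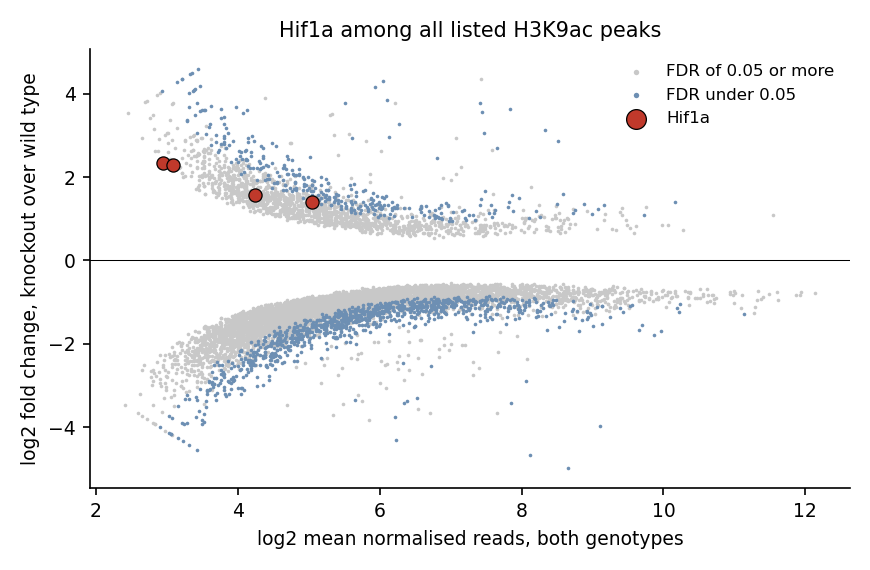
Log2 fold change (knockout over wild type) against log2 mean normalised reads for all 8115 listed H3K9ac peaks in the authors' deposited table, with peaks of FDR under 0.05 in blue and Hif1a in red. Only peaks with the authors' p under 0.05 are listed, and the empty band around 0 widens toward low signal. The 4 Hif1a points lie among the grey points on the higher side.

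H3K4me3 was not used to choose the gene. Its table lists peaks without a signal, fold change, p or direction, so it shows only that the authors listed these 2 regions in their comparison of genotypes. Both Hif1a regions were short: 764 and 363 bp against a median of 1104 bp among listed H3K4me3 peaks. Their place in an intron was uncommon, since 21 of the 469 listed regions were intronic and 411 were at promoters. Of the 456 genes in that table, 12 had 2 or more regions. Only Hif1a and Vgll4, a co-factor of TEAD transcription factors, had 2 intronic ones.

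Genes listed for both H3K4me3 and H3K9ac numbered 166. In 140 of them (84.3%) every listed H3K9ac peak was lower in the knockout, in 17 (10.2%) every one was higher, and 9 were mixed. Most listed genes leaned the same way: of all 5911 with H3K9ac peaks, 75.8% were lower and 24.2% higher. Those 2 shares take each gene by its peak of smallest p, and the difference was not tested. Hif1a was among the 17, with 4 H3K9ac peaks. Birc2 (an inhibitor of apoptosis) and Zbtb20 (a zinc-finger repressor) had 2 each. The other 14, which include the transcription factor gene Sp1, had 1 each. The 3 named beside Hif1a were picked after their values were seen.

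No H3K9me3 peak was annotated to Hif1a, and none was listed within 10 kb of it. The nearest listed ones lay 82.6 kb after the transcript's end, in an intron of Syt16, and 135 kb before its start, annotated to the long non-coding RNA gene Gm8075. At the Syt16 peak the log2 signal was −0.07 in the knockout and 2.80 in the wild type (p 0.0425, FDR 1) in the authors' deposited table. At the Gm8075 peak it was 7.12 and 2.28 (p 0.00551, FDR 1) in the authors' deposited table. Neither passed the authors' FDR. Of all listed H3K9me3 peaks 61.0% were higher in the knockout.

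Few other listed H3K9ac peaks lay near Hif1a. Within 100 kb of the transcript on either side, its own 4 peaks were the only listed ones. The nearest other, 139 kb before the start, was annotated to Gm8075 and lies within the RefSeq span of Prkch, a protein kinase C. It had 26.2 mean normalised reads in the knockout and 6.23 in the wild type (p 0.0138, FDR 0.163) in the authors' deposited table. Further before it, within 1 Mb, all 4 other listed peaks were lower in the knockout. After the gene no other peak was listed within 1 Mb. The next one, in Rhoj, lay 1364 kb away and had a log2 fold change of 1.21 (FDR 0.287) in the authors' deposited table. On chromosome 12 as a whole 60 of 346 listed H3K9ac peaks were higher, or 17.3%.

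Counted along the chromosome, the 4 Hif1a peaks, the Gm8075 peak and the Rhoj peak made a run of 6 listed peaks that were all higher. Over all chromosomes, 34 of 991 such runs were at least as long, 2 of them on chromosome 12, and the longest held 35 peaks. The 4 Hif1a peaks in this run are those that chose the gene, so nothing is read from its length.

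Genes with 4 or more listed H3K9ac peaks numbered 168. All listed peaks were higher in 11 of them (6.55%), all were lower in 117 (69.6%) and 40 were mixed. The 10 genes most like Hif1a by this measure, which rests on the mean of each genotype only, had 4 to 6 peaks each. Galk2 (a galactokinase family member), Tns4 (a tensin of focal adhesions), Tnfrsf1b (tumour necrosis factor receptor 2) and Susd6 had 6. Cystm1, Ptpre (a receptor-type tyrosine phosphatase) and Fads3 (a fatty acid desaturase) had 5, and Hs3st1 (a heparan sulfate sulfotransferase), Gm25916 and Rap1gap2 had 4. Hs3st1 was nearest to Hif1a in size, with a median log2 fold change of 1.73 against 1.94 for Hif1a in the authors' deposited table. The other 9 had medians from 0.84 (Fads3) to 1.44 (Galk2) in the authors' deposited table. Signal was not matched between these genes, and the largest Hif1a folds stand at its weakest peaks. By the FDR in the authors' deposited table, at least 1 peak passed in 7 of the 10 genes, among them Tnfrsf1b with 4 of 6. No peak passed in Cystm1, Fads3 or Hs3st1. Over the 10 genes 12 of 51 peaks passed, and Hif1a had 0 of 4. Of all higher listed peaks 17.6% passed, so nothing is read from the 0 of 4.

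**Figure D4:**
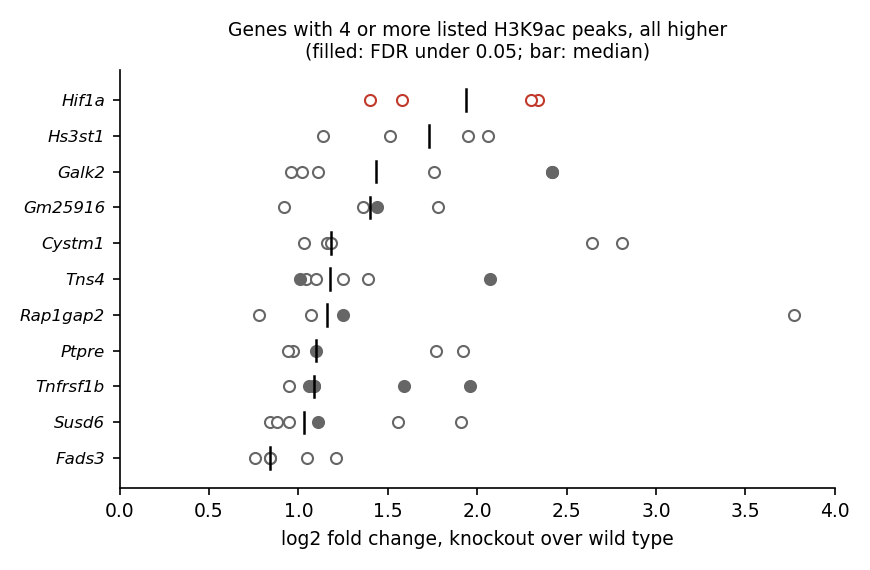
Log2 fold change of every listed H3K9ac peak in the 11 genes with 4 or more listed peaks that were all higher in the knockout, with the median of each gene as a bar and filled points for an FDR under 0.05. Hif1a has the highest median (1.94) and no filled point, as have Cystm1, Fads3 and Hs3st1 no filled point. Tnfrsf1b has 4.

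Genes of the HIF pathway were described through 3 lists. Lists of 32 regulators and partners, 27 glycolysis and metabolism targets, and 47 vascular, matrix and other targets were used, with 104 genes in all. Each gene took the direction of its listed peak of smallest p. Of the 104 genes, 33 had a listed H3K9ac peak. The share of all RefSeq genes with a listed peak was not computed, so nothing is read from the number listed, here or by list. Of these 33 genes, 29 were lower and 4 higher in the knockout (12.1% higher), beside 24.2% higher and 75.8% lower among all 5911 listed genes. The difference between these shares was not tested. Of the 33, 6 passed at that peak by the FDR in the authors' deposited table. Among all listed H3K9ac peaks 16.6% passed, which is a share of peaks and not of genes. The matching share of all listed genes was not computed, so nothing is read from the counts that passed, here or by list.

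Among the regulators and partners, 10 of 32 genes were listed, all with lower values, beside 75.8% lower among all listed genes. Of the 10, 1 passed the FDR. The median over their 12 peaks was −1.07 on the log2 scale, beside −0.98 over all listed peaks in the authors' deposited table. Hspa8, a chaperone of the 70 kDa heat shock family, was the one that passed, with a log2 difference of −0.94 (FDR 0.0349) in the authors' deposited table. Its peak was intergenic, 4262 bp from the annotated start site. Epas1, which encodes HIF-2 alpha, the closest relative of HIF-1 alpha, ran opposite to Hif1a at both of its listed peaks. Its peak at the annotated start site had 231 mean normalised reads in the knockout and 446 in the wild type (FDR 0.0749), and its intron peak had 17.9 and 45.6 (FDR 0.106), from the authors' deposited table. Hif1an, the asparagine hydroxylase that blocks binding of p300 to HIF-1 alpha, was listed at an intergenic peak 13822 bp from its start site. It had a log2 difference of −1.71 (FDR 0.110) in the authors' deposited table. Rbx1, the RING subunit of the von Hippel-Lindau ligase, had one of −1.24 (FDR 0.131) at a peak that the authors placed at the start of an inner transcript, inside the RefSeq gene, in the authors' deposited table.

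The other listed genes of that list also had lower values, and none of them passed the FDR. Arnt2, a dimerisation partner of HIF alpha subunits, had a log2 difference of −1.03 (FDR 0.0667), and Rela, the p65 subunit of NF-kappaB, −0.90 (FDR 0.0989), in the authors' deposited table. Rack1, which promotes oxygen-independent turnover of HIF-1 alpha, had −1.34 (FDR 0.198) in the authors' deposited table. Usp20, a deubiquitinase of HIF-1 alpha, had −0.99 and −1.29 at its 2 peaks in the authors' deposited table. The chaperone gene Hsp90ab1 and the prolyl hydroxylase gene Egln2 complete the 10, with −0.96 and −1.11 (FDR 0.243 and 0.286) in the authors' deposited table. Both were named after their values were seen. No H3K9ac peak was listed for Arnt, Vhl, Egln1, Egln3, Ep300 or Crebbp.

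All 9 listed glycolysis and metabolism genes of 27 had lower values, and 1 passed the FDR. The median over their 10 peaks was −1.29 on the log2 scale, beside −0.98 over all listed peaks, in the authors' deposited table. Taken over genes it was −1.13 beside −1.01. Among all listed genes 75.8% were lower, and 16.6% of all listed peaks passed the FDR. Gapdh, the glycolytic dehydrogenase, was the one that passed: its peak fell from 140 to 64 mean normalised reads (FDR 0.0424) in the authors' deposited table. Hk1 and Hk2, the hexokinases of the first glycolytic step, had log2 differences of −0.90 and −0.82 at their peaks of smallest p (FDR 0.109 and 0.177) in the authors' deposited table. Pfkfb4, which makes the activator of phosphofructokinase, had the largest, −2.03, at a weak peak (FDR 0.139), and Pfkp, a phosphofructokinase, had −1.60 (FDR 0.240) in the authors' deposited table. Carbonic anhydrase 12 (Car12), enolase 2 (Eno2) and the glucose transporter gene Slc2a3 had −0.83, −0.79 and −1.45 with FDRs of 0.124, 0.184 and 0.262 in the authors' deposited table. Ldha, Pgk1, Pdk1 and Slc2a1 had no listed peak.

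Of the 47 vascular, matrix and other targets 14 were listed, 10 lower and 4 higher in the knockout. Among all 5911 listed genes 75.8% were lower and 24.2% higher, and the difference was not tested. The median over the 25 peaks of these targets was −0.90 on the log2 scale, beside −0.98 over all listed peaks, in the authors' deposited table. The FDR was passed by 4 genes. Of these, Ccn2, a matricellular growth factor, was lower by 1.24 log2 units: its peak fell from 1675 to 709 mean normalised reads (FDR 0.0139) in the authors' deposited table. Mmp2, a gelatinase, fell from 455 to 215 (FDR 0.0185) in the authors' deposited table. Lox, which cross-links collagen and elastin, rose from 22.8 to 56.9 (FDR 0.0322) in the authors' deposited table. That peak lay 33718 bp before the start site given for Lox, although it was annotated as exon. Kdm4b, a histone demethylase gene, passed at 2 of 6 peaks, both lower, and had 1 higher peak with a log2 difference of 1.32 (FDR 0.204) in the authors' deposited table. Vegfa, the main angiogenic growth factor, had a log2 difference of −1.41 (FDR 0.0581) in the authors' deposited table.

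The other 3 with higher values did not pass the FDR. Bhlhe40, a circadian and hypoxia-responsive repressor, had 24.6 mean normalised reads in the knockout and 3.78 in the wild type (FDR 0.109) in the authors' deposited table. Its peak was intergenic, 9967 bp from the annotated start site. Ddit4, an inhibitor of mTOR complex 1, had 38.3 and 16.4 at its peak of smaller p (FDR 0.190) in the authors' deposited table. That peak was also intergenic, 5904 bp from the annotated start site. Vldlr, a lipoprotein receptor, had 516 and 261 at its annotated start site (FDR 0.157), from the authors' deposited table. Ddit4 and Vldlr were named after their values were seen, because they complete the 4. Angpt2, a vessel-destabilising ligand, had log2 differences of −0.98 and −0.81 (FDR 0.0519 and 0.111) in the authors' deposited table. In these 3 lists only Kdm4b had 4 or more listed H3K9ac peaks.

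**Figure D5:**
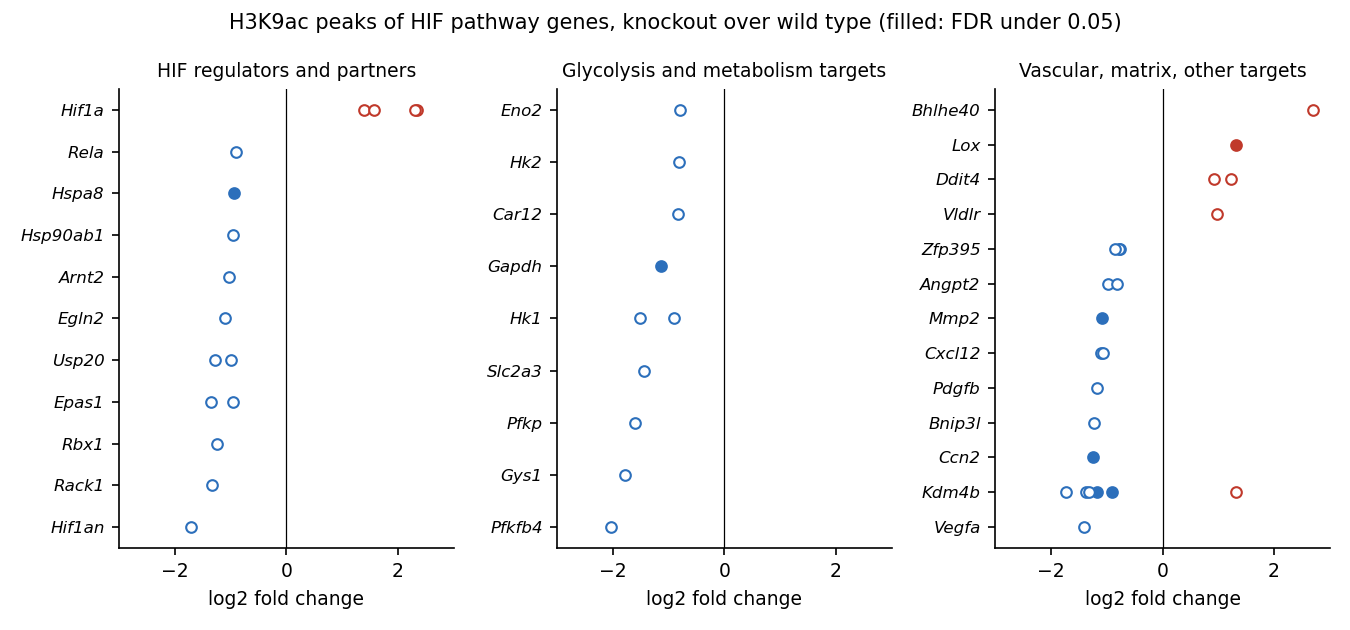
Log2 fold change of listed H3K9ac peaks for genes of the 3 HIF pathway lists and for Hif1a, 1 point per peak, filled where the FDR is under 0.05. The points of the regulators and the glycolysis genes lie left of 0 (lower in the knockout), those of Hif1a lie right of 0, and the third panel, in which 1 listed gene is not drawn, holds both.

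In the other marks the lists held little. H3K9me3 peaks were listed for Cited2, a competitor of HIF for p300 (log2 difference −2.97), Lox (4.04) and Mif, a cytokine gene (3.10), per the authors' deposited table, where the FDR of all 3 was 1. The Cited2 peak had 0.747 mean normalised reads in the knockout and 5.86 in the wild type, and the Mif peak 32.4 and 3.78. These differences rest on few reads in at least 1 genotype. H3K4me3 was listed for 1 gene of the 3 lists, Mmp2, at a region 17315 bp before its start site.

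The tables list differences and cannot show whether a cell type marker is present. Of 9 smooth muscle markers 6 had a listed H3K9ac peak (Acta2, Tagln, Smtn, Lmod1, Myocd and Des, but not Myh11, Cnn1 or Itga8). By the peak of smallest p, 5 were lower and 1 higher, beside 75.8% lower and 24.2% higher among all listed genes. Lmod1 passed with a log2 difference of −1.23 (FDR 0.0335) and Smtn with 0.95 (FDR 0.0435), per the authors' deposited table. Of all listed H3K9ac peaks 16.6% passed. Of 5 leukocyte markers, Cd14 and Aif1 were listed, while Ptprc, Csf1r and Lyz2 were not listed. The 3 listed peaks of Cd14 and Aif1 were higher in the knockout, beside 22.8% higher among all listed peaks, and this was not tested. Of 5 endothelial markers Pecam1 was higher and Vwf lower, and of 5 fibroblast markers Lum was higher and Pdgfra lower. None of these leukocyte, endothelial and fibroblast peaks passed the authors' FDR at 0.05. Their part in the Hif1a values was not tested.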

How the data were processed

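The 3 tables hold the authors' comparison of CSE knockout with wild type for each mark. Per the file headers, the H3K9ac and H3K9me3 tables give log2 mean normalised reads for each genotype, a log2 fold change, and the authors' p-value and FDR. The H3K4me3 table gives positions and annotation only. CASAVA 1.4 and the build mm9 are named in the submitters' processing notes. For the aligner, peak caller, normalisation and differential test, no name is given in the sources used here. Positions of the annotated genes overlapped those of RefSeq GRCm38.p6 for 99.6 to 100% of matched symbols by table, so peak positions are printed as deposited and taken to be GRCm38. The peak positions themselves were not tested. The width column of the H3K9ac table exceeds the printed interval by 1 bp.

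Linear reads and folds were computed as powers of 2 of the deposited log2 values. The deposited fold change equalled the difference of the group values within 0.01. No test was run, because the tables hold no value per library. The H3K9ac table lists no p below 0.0001, so its counts describe listed peaks only, and how many peaks were tested is not given. Peaks of smaller p could be missing at Hif1a, at its start site and flanks, and at genes described as not listed. The shares that passed the FDR are likewise shares of listed peaks. Counting functions were tested on simulated data. Computation used Python 3.11.15, pandas 2.3.3 and numpy 2.4.6. Of the 104 HIF pathway genes, 1 (Tf) was not found in RefSeq by that symbol.

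The gene, the pathway lists and the rules were chosen with earlier results of these data known. Named genes are, per list, up to 8 of smallest p, and up to 10 genes with at least as many listed peaks as Hif1a, all higher, ordered by number of peaks and closeness of the median. Vgll4, Cited2 and Mif were also chosen after their values were seen. One gene that this rule names in the vascular list is counted there but not reported here. Stricter p, FDR, fold and signal, assignment by position, merging, window size and overlap rules were tried.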

Additional observations from a re-analysis of the deposited data

How the results depend on the processing

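The 4 higher Hif1a H3K9ac peaks became 1 with p under 0.01, 0 with p under 0.001, 0 with an FDR under 0.05 and 1 with a mean log2 signal of at least 5. They remained 4 at 2-fold or more, by position or merged within 1 kb, and were 3 merged within 5 kb. The regulators list, with 10 lower genes, had 6 with p under 0.01 and 1 with an FDR under 0.05. The glycolysis list, with 9, had 5 with promoter peaks only, 3 with p under 0.01 and 1 with an FDR under 0.05. Neither list had a higher listed peak, so no stricter setting could give a higher gene. The vascular list, with 4 higher and 10 lower, had 2 higher with promoter peaks only, 2 higher and 6 lower with p under 0.01, and 1 higher and 3 lower with an FDR under 0.05. Near Hif1a, the 4 lower peaks within 1 Mb were 2 within 500 kb, 0 within 250 kb and 0 within 100 kb, and the 1 other higher peak was 0 within 100 kb. With centres within 5 kb counted as shared, 1 H3K9ac peak had a partner, against 0 by overlap. Each stricter setting keeps a subset of the listed peaks. Assigning H3K4me3 and H3K9me3 peaks by position, an alternative chosen after seeing the data, left 2. No paired analysis was possible because the tables hold no value per library. Leaving out replicates and other normalisations were not run for the same reason. Depth is unknown, and the 2 weakest Hif1a peaks rest on under 3 mean normalised wild-type reads.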

Other observations

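Promoter labels far from the outer start of a gene, as at Hif1a, were common in the H3K9ac table. Of its 3647 rows called promoter, 3280 matched a RefSeq gene of the same symbol and chromosome. In 1566 of these (47.7%) the peak lay more than 3 kb from the outer start of that gene, and in 667 (20.3%) more than 20 kb from it, as both promoter-labelled Hif1a peaks did from the start of its main transcript. The lengths of the transcripts behind these labels were not compared.

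Lox, the collagen cross-linking enzyme, was the one gene of the HIF lists with listed peaks of both H3K9ac and H3K9me3. Both were higher in the knockout, with log2 differences of 1.32 (FDR 0.0322) and 4.04 (FDR 1) in the authors' deposited table. The peaks lay 33718 and 17711 bp before the start sites the authors gave, although they were annotated as exon and intron. The wild-type log2 signal of the H3K9me3 peak was −0.45. That is the lowest value in its table, shared by 1030 peaks, so the difference of 4.04 depends on that level.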
